A study of Mus musculus with 6 samples.

Results

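The genes described here are 47 components of actin filaments and of the myosin motors and adaptor proteins that work on them: the actins, the Arp2/3 complex, cofilins, profilins, thymosins, capping proteins, crosslinkers, tropomyosins, the chains of non-muscle myosin II, proteins that tie filaments to membranes and adhesions, and the muscle protein myotilin. They were picked by symbol among the 23349 rows of the deposited expression table. All 47 were listed there, and 46 had a mean of at least 1 TPM (a share of each library's total, scaled to 1000000) and were tested. The RNA came from AtT-20 iPAM cells, corticotropes from a pituitary tumour of the mouse in which PAM can be induced with doxycycline. PAM is peptidylglycine alpha-amidating monooxygenase, a membrane enzyme of secretory granules that amidates peptides. Cells of all libraries were passaged in DMEM-F12 with serum, antibiotics, G418 and hygromycin. There were 3 induced libraries, whose cells had doxycycline at 4 micrograms per ml in the final 48 h, and 3 basal libraries, for which the labels name no doxycycline, so the drug and the raised PAM cannot be told apart. Whether the line is a single clone and whether each library had its own culture is not stated, so p-values reflect library-to-library spread only, part of which may be technical.

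Actin is the protein of the thin filaments that shape the cell cortex. Filaments grow from monomers held by profilin and thymosin, branch through the Arp2/3 complex, are stopped by capping proteins and are taken apart by cofilin. Tropomyosins coat them and non-muscle myosin II pulls on them. In pituitary cells the cortical network lies between secretory granules and the plasma membrane and is remodelled during hormone release.

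Pam itself stood at 92.6, 82.8 and 66.9 TPM in the basal libraries and at 507, 399 and 258 TPM in the induced ones. The level was higher in every induced library, with a log2 difference of 2.21 (SE 0.26) in limma at adjusted p = 0.0210, and p = 0.1 in the exact permutation test of the 6 values, the smallest 3 against 3 allows. With basal 1, basal 2, basal 3, induced 1 or induced 2 left out, the call was lost, at limma adjusted p = 0.0978, 0.181, 0.0699, 0.0867 and 0.119 in that order. Without basal 1, basal 2 or induced 1, 0 genes of the whole table were called. Of 8 corticotrope markers 1, Avpr1b, was under 1 TPM, and the 8 summed to between 23187 and 32149 TPM in basal and between 21601 and 30519 TPM in induced libraries. Of 8 markers of other pituitary cells 7 were under 1 TPM, as were all 7 listed leukocyte markers.

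Among the actin genes, 1 rose and 0 fell. Myot rose, and no other member passed the limma threshold (adjusted p under 0.05 over all 12400 genes tested), where 1.19% of all genes were called, 0.129% higher and 1.06% lower. In the 46 tested members 5, or 10.9%, had an unadjusted p under 0.05, beside 15.1% of all genes. Libraries with equal column numbers deviated from their group means together, clearly for number 3 (r = 0.72), less for number 1 (0.46) and weakly for number 2 (0.18). Basal 1 with induced 2 (0.32) and basal 2 with induced 1 (0.28) did so too, so only number 3 stands out. P-values of a fit that uses this pairing may be too small, since the pairing was taken from the same data. With the column number as a block (called blocked from here on) 3 members rose and 8 fell, 11 in all beside 22.3% of all genes. In that fit 8.23% of all genes were called higher and 14.0% lower, against 6.52% and 17.4% of members, so the shares of called members lie near those of all genes. The 3 that rose were Myot, Tpm2 and Tmsb10. The 8 that fell were Vcl, Msn, Ezr, Actg1, Myh9, Myl12a, Actn4 and Evl. With both libraries numbered 3 left out of the blocked fit, an alternative chosen after the data were seen, 1 of the 46 rose and 6 fell. In that fit 707 of all 12394 genes were called higher and 1157 lower. There Tpm2, Tmsb10, Myl12a and Evl were no longer past the threshold (limma adjusted p = 0.122, 0.131, 0.0654 and 0.103). The groups did not overlap for 4 members that were higher, beside 9.04% of all genes, and for 6 that were lower, beside 12.6%. Together these are 21.7% of members and 21.6% of all genes. Each induced library was below the basal library of its number for 37.0% of members and 32.6% of all genes. It was above for 15.2% and 23.6%. Genes past the threshold when blocked tend to have this pattern by the way they were picked, since the block compares equal numbers.

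The median log2 difference (induced minus basal, log2(TPM + 1)) was -0.05 over the members and -0.04 over all genes tested, with 16 of 46 members above 0, or 34.8%, against 44.9% of all genes. Those signs depend on the scale set for the induced libraries. The deposited DESeq2 table sits 0.42 higher on the log2 scale than ratios of mean TPM over its 195 genes. It lists only genes past a DESeq2 threshold of 0.05, so the offset comes from selected genes. The deposited Cuffdiff log2 changes were 1.09 for Myot, -0.84 for Vcl, -0.73 for Msn, -0.56 for Ezr and -0.46 for Myh9. Those lay near the TPM differences (1.04, -0.81, -0.75, -0.57 and -0.47). Which scale is right was not tested. Shifting the induced libraries by that offset moved the median of all genes to 0.36 and that of members to 0.37, with 40 of 46 members then above 0. The shift also put Actg1, Actn4 and Evl at 0.00, 0.08 and 0.12, so their direction holds only relative to the other genes. It left Myh9 and Myl12a near 0, at -0.05 and -0.04, and reduced Ezr, Msn and Vcl to -0.15, -0.34 and -0.40 (adjusted p = 0.367, 0.239 and 0.141, unblocked). The same shift raised Myot, Tpm2 and Tmsb10 to 1.46, 0.77 and 0.69 (limma adjusted p = 0.0193, 0.0315 and 0.109, unblocked). In that fit 1858 of all 12522 genes were called higher.

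**Figure D1:**
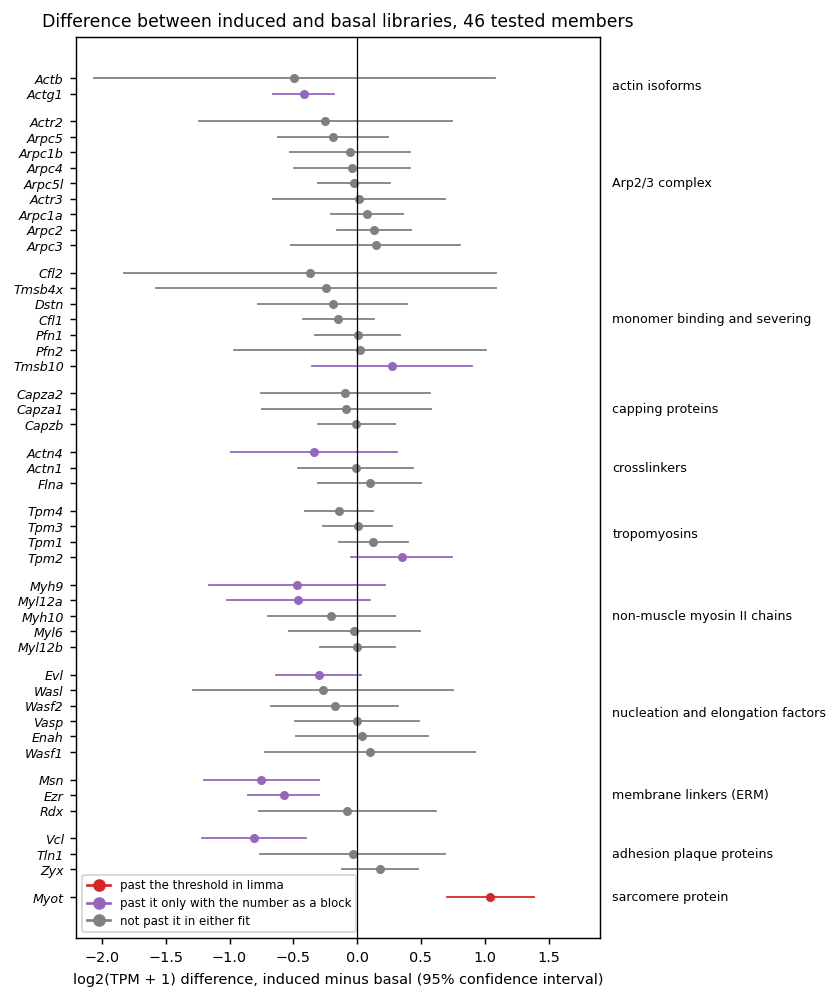
Log2(TPM + 1) difference, induced minus basal, with its 95% confidence interval from limma, for the 46 tested members grouped by role (3 libraries per group). Myot is the only member past the threshold in the fit without the block; the 10 purple genes pass with the column number as a block, 8 of them lower and 2 higher. Under the offset of the deposited DESeq2 table Actg1, Actn4 and Evl take positive values.

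Myotilin, the product of Myot, binds actin, alpha-actinin and filamin at the Z-disc of striated muscle. Myot stood at 34.5, 36.9 and 35.5 TPM in the basal libraries and at 80.7, 63.9 and 80.2 TPM in the induced libraries. The induced libraries all lay above the basal ones, and the basal libraries were close together. The mean went from 35.7 ± 1.23 to 75.0 ± 9.54 TPM (SD, n = 3), 2.102-fold, and the log2 difference was 1.04 (SE 0.14, 95% confidence interval, CI, 0.70 to 1.38, limma adjusted p = 0.0315). Blocked, its adjusted p was 4.8e-04. In RNA from whole wells, a change in the number of cells with a transcript and a change in its amount per cell cannot be told apart. Myot was the tested member with the largest difference in either direction. Leaving out basal 1, basal 2, basal 3, induced 1 or induced 2 ended the call (limma adjusted p = 0.144, 0.199, 0.116, 0.142 and 0.0959), with log2 differences from 0.99 to 1.15 over the 6 fits that left out 1 library. Without basal 1, basal 2 or induced 1 the whole table had 0 calls. In the authors' deposited tables Myot is listed by all 3 methods, with log2 changes of 1.09 (Cuffdiff), 1.51 (DESeq2) and 1.04 (limma), and it is in the deposited core list, which holds 0.460% of all genes tested.

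Other markers of striated muscle were mostly at or near 0. Of 13 skeletal muscle markers 11 were under 1 TPM and 6 were listed at 0 in every library, among them the master regulator Myod1 and the troponins Tnnt3 and Tnni2. Summed, the 13 markers came to between 17.0 and 22.7 TPM in basal and between 14.2 and 24.9 TPM in induced libraries. Most of that was myoglobin, Mb, at 14.3, 17.2 and 18.5 TPM in basal and 13.2, 12.0 and 21.7 TPM in induced libraries. Of 16 further Z-disc and muscle genes 5 were listed at 0 everywhere, including muscle alpha-actinin Actn2 and telethonin Tcap, and 4 were tested. Among those 4, 0 passed in limma, where 1 had an unadjusted p under 0.05 (beside 15.1% of all genes), and 2 fell when blocked (beside 14.0%). Fbxo32, a ubiquitin ligase of muscle wasting, had means of 30.9 ± 10.9 and 14.96 ± 2.57 TPM (SD, n = 3), with adjusted p = 0.139 in limma and 0.00133 blocked. The intermediate filament gene Des had means of 19.2 ± 4.47 and 13.5 ± 5.93 TPM (SD, n = 3), with adjusted p = 0.509 in limma and 0.0337 blocked. Ldb3, which encodes the Z-disc protein ZASP and was listed with adhesion proteins, stood at 18.4, 18.0 and 13.8 TPM in basal and 31.0, 25.2 and 17.3 TPM in induced libraries (adjusted p = 0.393 in limma and 0.0149 blocked).

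Ezrin, radixin and moesin (Ezr, Rdx and Msn) link filaments to membrane proteins at the cell cortex. Ezr stood at 156, 164 and 169.8 TPM in basal and at 106, 106 and 116 TPM in induced libraries. Every induced library was below every basal one. The mean went from 163 ± 7.14 to 109 ± 5.93 TPM (SD, n = 3), 1.49-fold lower, with a log2 difference of -0.57 (SE 0.12, 95% CI -0.85 to -0.30; adjusted p = 0.0769 in limma and 0.00199 blocked). Msn stood at 92.6, 82.7 and 70.5 TPM in basal and at 58.7, 48.2 and 39.1 TPM in induced libraries. The library numbered 3 was the lowest of each group for Msn, yet the groups did not overlap and each induced library lay below the basal library of its number (so did 32.6% of all genes). Its log2 difference was -0.75 (SE 0.19; adjusted p = 0.125 in limma and 9.3e-04 blocked). For radixin, Rdx stood at 57.8, 40.9 and 32.6 TPM in basal and at 53.6, 43.5 and 27.9 TPM in induced libraries, and the groups overlapped (log2 difference -0.08, 95% CI -0.77 to 0.62).

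Vinculin, from Vcl, clamps filaments to talin at cell adhesions. Vcl stood at 41.8, 31.0 and 29.6 TPM in basal and at 20.3, 18.0 and 18.3 TPM in induced libraries. The induced libraries were alike and all lay below the lowest basal library. The mean went from 34.1 ± 6.66 to 18.9 ± 1.24 TPM (SD, n = 3), 1.81-fold lower, and the log2 difference was -0.81 (SE 0.17; 95% CI -1.21 to -0.40; adjusted p = 0.0827 in limma and 0.00141 blocked). The other adhesion plaque members passed in neither fit. Zyxin, Zyx, which gathers at strained filaments, stood at 41.1, 43.8 and 44.5 TPM in basal and 47.7, 47.04 and 52.1 TPM in induced libraries, without overlap (log2 difference 0.18, adjusted p = 0.604 in limma and 0.190 blocked). Talin, Tln1, ranged from 23.9 to 36.8 TPM in basal and from 20.4 to 43.4 TPM in induced libraries. Correcting each library for the GC content of transcripts, an alternative chosen after the data were seen, brought Ezr, Msn and Vcl past the threshold unblocked (adjusted p = 0.0413, 0.0259 and 0.0275). Leaving out both libraries numbered 3 did so too (0.0100, 0.00732 and 0.00570), whereas the shift by the DESeq2 offset gave 0.367, 0.239 and 0.141, with log2 differences of -0.15, -0.34 and -0.40.

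Start regions are printed for 4 of the 5 genes that fell when blocked and whose groups did not overlap, from RefSeq on mm10 (GRCm38.p6): 250 bases before to 50 after the gene's start, read along the gene. Capitals mark 2 motifs, the CArG box bound by serum response factor, a regulator of many cytoskeletal genes, and the AP-1 site TGANTCA, both searched on either strand; a match describes letters and is not a shown binding site. The fifth gene, Evl, has 2 start regions in the table, neither with a match, and they are not printed. Gene ends are from GENCODE M21, while the stretches and the motif positions are counted from the RefSeq start, which differs from the GENCODE one for Actg1, Ezr and Msn. Vcl lies on chromosome 14 from 20929398 to 21033676 (plus strand) and its printed stretch is chr14:20929148-20929447. Actg1 lies on chromosome 11 from 120345690 to 120348542 (minus strand) and its stretch is chr11:120348446-120348745. Ezr lies on chromosome 17 from 6738041 to 6782784 (minus strand) and its stretch is chr17:6782731-6783030. Msn lies on chromosome X from 96096042 to 96168552 (plus strand) and its stretch is chrX:96095795-96096094.
Vcl: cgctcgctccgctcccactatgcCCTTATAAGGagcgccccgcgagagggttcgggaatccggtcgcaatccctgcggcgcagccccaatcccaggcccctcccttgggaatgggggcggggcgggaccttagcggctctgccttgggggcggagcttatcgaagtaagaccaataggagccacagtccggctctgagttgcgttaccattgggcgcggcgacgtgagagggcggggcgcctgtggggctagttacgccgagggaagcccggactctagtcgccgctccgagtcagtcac
Actg1: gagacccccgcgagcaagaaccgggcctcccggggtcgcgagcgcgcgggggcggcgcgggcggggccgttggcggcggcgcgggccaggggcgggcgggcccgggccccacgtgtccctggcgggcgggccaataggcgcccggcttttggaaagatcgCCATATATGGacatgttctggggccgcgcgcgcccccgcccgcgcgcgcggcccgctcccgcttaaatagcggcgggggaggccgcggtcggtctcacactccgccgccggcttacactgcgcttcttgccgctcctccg
Ezr: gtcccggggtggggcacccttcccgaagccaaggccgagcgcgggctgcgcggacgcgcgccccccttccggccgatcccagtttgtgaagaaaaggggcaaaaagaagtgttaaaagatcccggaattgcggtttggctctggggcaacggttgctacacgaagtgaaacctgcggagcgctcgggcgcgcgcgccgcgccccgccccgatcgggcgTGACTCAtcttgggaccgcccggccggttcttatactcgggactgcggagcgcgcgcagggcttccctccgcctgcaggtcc
Msn: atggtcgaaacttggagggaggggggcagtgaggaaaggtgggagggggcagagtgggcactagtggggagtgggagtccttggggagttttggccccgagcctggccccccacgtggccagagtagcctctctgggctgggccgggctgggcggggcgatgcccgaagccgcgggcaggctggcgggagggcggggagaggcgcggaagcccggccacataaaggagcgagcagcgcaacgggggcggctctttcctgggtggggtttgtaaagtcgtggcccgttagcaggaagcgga
A CArG box starts 227 bases before the RefSeq start of Vcl and 90 before that of Actg1, and an AP-1 match 32 before that of Ezr; the Msn stretch holds neither. Of the 50 start regions that the table holds for 44 members, 5 had a CArG box, beside 1.63% of all 32851 regions of that length, and 4 had an AP-1 match, beside 7.81% of all. The other CArG boxes were at Myl6, Myl9 and Arpc4, of which Myl9 was not tested and Myl6 and Arpc4 did not pass in either fit. The other AP-1 matches were at Actn4, Myl12a and Zyx. Of those, Actn4 and Myl12a fell when blocked and Zyx passed in neither fit.

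Both cytoplasmic actins are made in nearly all cells. Gamma-actin, Actg1, stood at 1121, 1174 and 1139 TPM in basal and at 856, 859 and 855 TPM in induced libraries. Both groups were tight and did not overlap. The mean went from 1145 ± 27.1 to 857 ± 1.88 TPM (SD, n = 3), with a log2 difference of -0.42 (SE 0.10, 95% CI -0.66 to -0.18; adjusted p = 0.114 in limma and 0.00435 blocked), and 0.00 under the offset of the deposited DESeq2 table. Beta-actin, Actb, often used as a reference gene, stood at 1491, 1586 and 715 TPM in basal and at 1401, 1539 and 282 TPM in induced libraries. The spread within each group exceeded the difference between groups, and the library numbered 3 was the lowest of both. Its log2 difference was -0.49 (SE 0.67, 95% CI -2.06 to 1.08; adjusted p = 0.831 in limma and 0.127 blocked). Of 1125 coding bases 88.6% are identical between these genes (GENCODE M21), and since the positions of the amplicons were not at hand, whether their reads could be mixed is not known. The first 60 coding bases, from the start codon on, show this likeness, with the 9 differing bases in capitals; they hold the acidic start of the protein by which the isoforms are told apart.
Actb: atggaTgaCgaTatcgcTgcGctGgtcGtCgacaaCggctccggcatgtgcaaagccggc
Actg1: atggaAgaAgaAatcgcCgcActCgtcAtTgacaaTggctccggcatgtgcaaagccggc

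**Figure D2:**
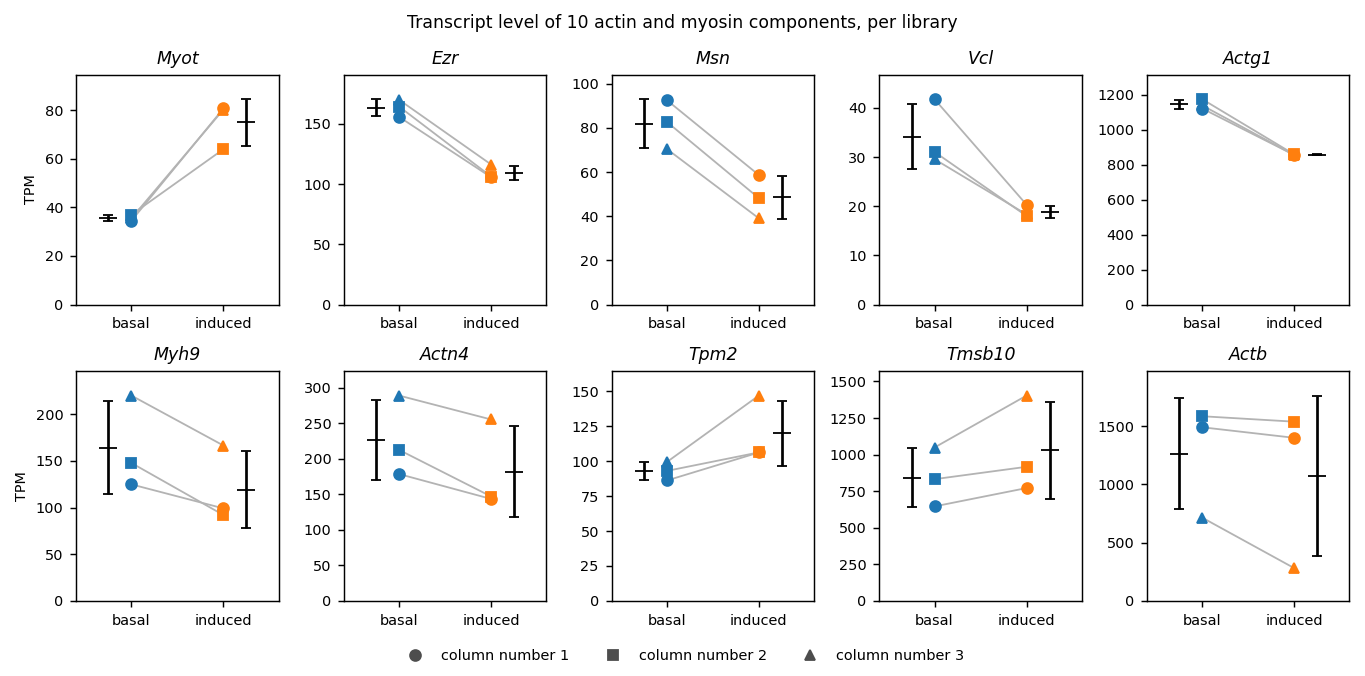
TPM of 10 members in each library; points are libraries, marker shapes give the column number, grey lines join equal numbers, and black bars give mean ± SD (n = 3). For Myot every induced library (63.9 to 80.7 TPM) is above every basal one (34.5 to 36.9 TPM), while Actb is set mostly by the library numbered 3; Actg1 and Actn4 are lower in induced libraries as deposited and not under the offset of the deposited DESeq2 table.

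Non-muscle myosin II is built of heavy chains, essential light chains and regulatory light chains. The heavy chain Myh9 stood at 125, 148 and 220.1 TPM in basal and at 99.2, 92.1 and 167 TPM in induced libraries. The groups overlapped, with both libraries numbered 3 high, and each induced library was below the basal library of its number, as for 32.6% of all genes. The log2 difference was -0.47 (SE 0.29; adjusted p = 0.542 in limma and 0.00915 blocked). Single libraries moved the unblocked value, to -0.24 without basal 3, -0.31 without induced 2 and -0.73 without induced 3, and the DESeq2 offset moved it to -0.05. Another heavy chain, Myh10, stood at 68.4, 64.8 and 83.9 TPM in basal and 59.3, 49.9 and 82.1 TPM in induced libraries (log2 difference -0.20, adjusted p = 0.761 in limma and 0.170 blocked). The essential light chain Myl6 had nearly equal means, 844 ± 134 and 845 ± 238 TPM (SD, n = 3). Among regulatory light chains, Myl12a stood at 154, 143 and 115 TPM in basal and at 109.6, 126 and 70.6 TPM in induced libraries. Only the basal library numbered 3 reached into the induced range, and the log2 difference was -0.46 (SE 0.24; adjusted p = 0.438 in limma and 0.0168 blocked). Unblocked it was -0.22 without induced 3, and -0.04 under the DESeq2 offset. Myl12b stood at 288 ± 25.5 and 288 ± 16.7 TPM (SD, n = 3). Myl9, the smooth-muscle form, was listed at 0 in 5 libraries and at 0.162 TPM in induced 2.

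Myl12a and Myl12b lie near each other on chromosome 17 of mm10, on the minus strand, Myl12a from 70993656 to 71002878 and Myl12b from 70973133 to 70990890. They are 96.5% identical over 516 coding bases, and since the positions of the amplicons were not at hand, whether their reads are kept apart is not known. Their first 60 coding bases show how few positions tell them apart, with the 4 differing bases in capitals.
Myl12a: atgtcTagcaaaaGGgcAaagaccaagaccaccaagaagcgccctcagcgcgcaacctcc
Myl12b: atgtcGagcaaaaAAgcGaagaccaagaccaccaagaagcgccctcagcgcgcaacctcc

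Thymosins, profilins and the cofilin family bind actin monomers or cut filaments. Tmsb10, a thymosin that holds monomers in reserve, stood at 646, 832 and 1049 TPM in basal and at 772, 917 and 1403 TPM in induced libraries. Each induced library was above the basal library of its number, as for 23.6% of all genes, although the groups overlapped. The log2 difference was 0.27 (SE 0.27; adjusted p = 0.735 in limma and 0.0417 blocked). It rested on single libraries: unblocked it was 0.03 without induced 3, 0.09 without basal 1, 0.44 without basal 3 and 0.46 without induced 1. Tmsb4x was near the floor of the table, between 0.422 and 5.28 TPM. Reads of thymosin genes can match related copies, and whether they did so here was not tested. The cofilin of most cells, Cfl1, stood at 1314, 1354 and 1475 TPM in basal and 1339, 1267 and 1138 TPM in induced libraries (log2 difference -0.15, 95% CI -0.43 to 0.13). The muscle cofilin Cfl2 stood at 89.1, 65.8 and 29.8 TPM in basal and 69.3, 68.1 and 16.6 TPM in induced libraries, lowest in both libraries numbered 3 (log2 difference -0.37, SE 0.62). Destrin, Dstn, had means of 469 ± 119 and 409 ± 95.1 TPM (SD, n = 3). The profilins did not pass in either fit: Pfn1 had a log2 difference of 0.00 (95% CI -0.33 to 0.34) and Pfn2 of 0.02 (-0.97 to 1.01).

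The Arp2/3 complex starts new filaments as branches on old ones. Of its 9 genes 0 passed in limma or blocked, and 0 had an unadjusted p under 0.05 in limma, beside 15.1% of all genes. The median log2 difference was -0.02, with 4 above and 5 below 0. The members ran from -0.25 (Actr2, SE 0.42) to 0.15 (Arpc3, SE 0.28). Some intervals were narrow: Arpc5l had a 95% CI of -0.31 to 0.26 and Arpc1a of -0.20 to 0.36. Others were wide, and for these the libraries numbered 3 stood apart. Actr2, one of the actin-related subunits, stood at 146, 112 and 70.6 TPM in basal and at 133, 107 and 47.9 TPM in induced libraries. Arpc3 went the other way within each group, at 469, 481 and 699 TPM in basal and 466, 511 and 895 TPM in induced libraries.

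Factors that switch on branching or extend filaments were mixed. Evl, an Ena/VASP protein that speeds the growth of filament ends, stood at 75.5, 72.1 and 87.3 TPM in basal and 57.5, 63.3 and 69.2 TPM in induced libraries. The groups did not overlap, and the log2 difference was -0.30 (SE 0.14; adjusted p = 0.390 in limma and 0.0426 blocked), which turns to 0.12 under the offset of the deposited DESeq2 table. Its relatives Vasp and Enah had log2 differences of -0.00 (SE 0.21) and 0.04 (SE 0.22). Wasl, the N-WASP activator of Arp2/3, stood at 50.8, 42.6 and 23.1 TPM in basal and 45.6, 37.7 and 16.3 TPM in induced libraries. The WAVE subunits Wasf1 and Wasf2, which activate Arp2/3 at the leading edge, had log2 differences of 0.10 (SE 0.35) and -0.18 (SE 0.21) and did not pass in either fit.

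Tropomyosins select which proteins reach a filament. Tpm2 stood at 86.1, 92.9 and 99.3 TPM in basal and at 106, 106 and 147 TPM in induced libraries. The groups did not overlap, and induced 3 was well above the other 5. The log2 difference was 0.35 (SE 0.17; adjusted p = 0.399 in limma and 0.0328 blocked), and 0.19 unblocked without induced 3. Tpm1 was also higher in each induced library, at 134, 135 and 144 TPM in basal and 155, 149 and 146 TPM in induced libraries, and Tpm4 lower, at 242, 222 and 240.0 against 221, 206 and 211 TPM. Neither passed in either fit (adjusted p = 0.719 and 0.664 in limma, 0.325 and 0.231 blocked). Tpm3 had means of 357 ± 14.4 and 358 ± 20.7 TPM (SD, n = 3).

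Crosslinkers bundle filaments or tie them into meshes. Actn4, a non-muscle alpha-actinin, stood at 178, 212 and 289 TPM in basal and at 143, 147 and 255 TPM in induced libraries. Each induced library was below the basal library of its number, as for 32.6% of all genes. The log2 difference was -0.34 (SE 0.28, adjusted p = 0.668 in limma and 0.0299 blocked), which turns to 0.08 under the offset of the deposited DESeq2 table. Unblocked it was -0.15 without basal 3, -0.20 without induced 1, -0.21 without induced 2 and -0.61 without induced 3. Its relative Actn1 had means of 48.5 ± 8.61 and 48.1 ± 8.81 TPM, and filamin A, Flna, of 29.1 ± 2.99 and 31.3 ± 5.34 TPM (SD, n = 3). The capping protein subunits that stop filament ends, Capza1, Capza2 and Capzb, had log2 differences of -0.08, -0.09 and -0.01 (SE 0.28, 0.28 and 0.13). Of these 5, 0 passed in either fit.

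Ratios between related genes depend little on the scale of a library unless a gene is low, as Tmsb4x is, and 18 such pairs were compared as log2 ratios of TPM + 1. For 16 pairs the groups overlapped. The ratio of Rdx to Msn was -0.67, -1.0002 and -1.09 in basal and -0.13, -0.14 and -0.47 in induced libraries. All induced libraries lay above the basal ones, with a difference of 0.67 between group means. The ratio of Tpm3 to Tpm4 was also higher in every induced library, by 0.14 (0.60 ± 0.064 in basal and 0.75 ± 0.045 in induced libraries, SD, n = 3). Each of these pairs had p = 0.1 in an exact two-sided permutation test, the smallest the design allows, and an adjusted p of 0.771 over the 18 pairs. No pair could have passed 0.05 in this test whatever its values, so the test does not decide whether any ratio changed. The ratio of Actb to Actg1 varied widely within groups, at 0.41, 0.43 and -0.67 in basal and 0.71, 0.84 and -1.60 in induced libraries.

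**Figure D3:**
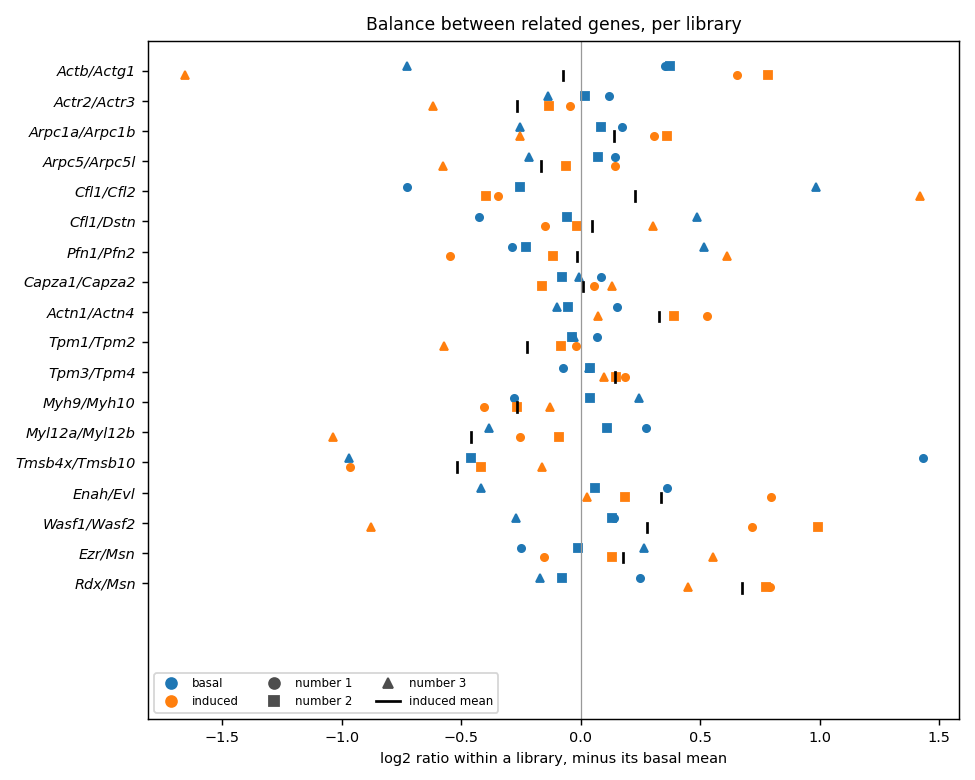
Log2 ratio of TPM + 1 within each library for 18 pairs of related genes, shown relative to the pair's basal mean; blue points are basal and orange points induced libraries, marker shapes give the column number and black ticks the induced mean. Only Rdx to Msn and Tpm3 to Tpm4 have groups without overlap.

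The libraries numbered 3 stood apart from the others of their group for many members. Library 3 was the lowest of its group in both groups for 19 members, or 41.3%, and the highest in both for 15, or 32.6%, beside 40.6% and 25.5% of all genes tested. Actb was 2.15-fold lower in basal 3 than the mean of basal 1 and 2, and 5.21-fold lower in induced 3 than the mean of induced 1 and 2. Cfl2 was 2.597-fold and 4.14-fold lower and Wasl 2.02-fold and 2.55-fold lower in the same terms. Among those higher in libraries numbered 3, Tln1 was 1.49-fold and 1.98-fold higher and Myh9 1.61-fold and 1.74-fold higher. Some members were level across numbers: Actg1 in basal 3 was 0.992 times and in induced 3 0.998 times the mean of its group's other two.

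The members for which library 3 was low and those for which it was high differed in base composition. Transcripts of the 19 low members had a median GC content of 46.2% (36.9% to 58.0%) and those of the 15 high members 54.0% (49.8% to 61.0%). Over the 46 members the deviation of library 3 on the log2 scale followed GC content with a Spearman rank correlation of 0.68 in basal and 0.58 in induced libraries, and over 12289 genes with 0.50 and 0.53. These are descriptions across genes measured in the same libraries, and genes are not independent replicates. The part of base composition in the results above was not tested beyond the GC-corrected fits.

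**Figure D4:**
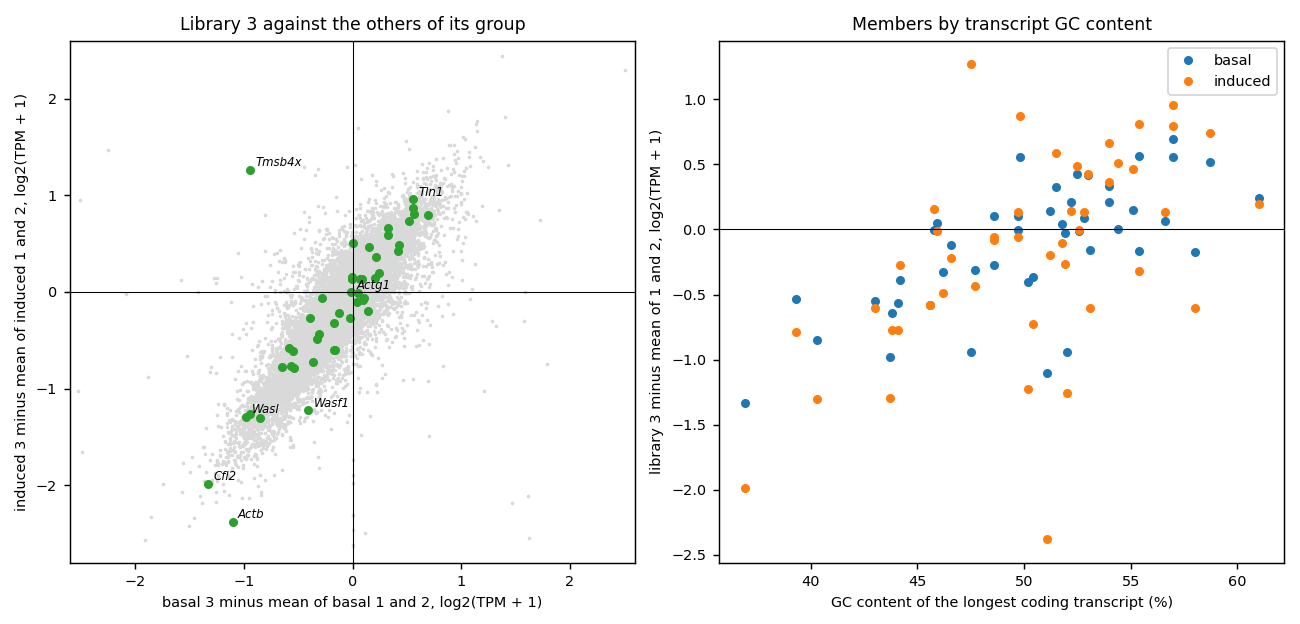
Left, deviation of library 3 from the mean of libraries 1 and 2 on the log2(TPM + 1) scale, basal on x and induced on y, for members (green) and all genes tested (grey, 41 genes lie outside the axes); right, the same deviations of the members (blue basal, orange induced) against the GC content of the longest coding transcript. Actb and Cfl2 lie far to the lower left, and members of low GC content are mostly below 0.

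Of 8 further lists of actin-related genes, 109 different genes were tested, with 29 log2 differences above and 80 below 0 and a median of -0.13. That is 73.4% below 0, beside 55.1% of all genes. Under the DESeq2 offset 85 were above and 24 below 0, where the median of all genes was 0.36. In limma 0 passed and 19 of the 109 had an unadjusted p under 0.05, beside 15.1% of all genes. With the block 27 fell and 5 rose, which is 24.8% and 4.59% of the 109, beside 14.0% and 8.23% of all genes tested.

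Formins build unbranched filaments. Of 11 in the deposited sheet, 8 were tested, and the log2 differences of these 8 were below 0 (55.1% of all genes were), with a median of -0.54; 3 of the 8 were above 0 under the DESeq2 offset. When blocked 5 fell and 0 rose, beside 14.0% and 8.23% of all genes, shares against which the counts of the other lists are read too. Unblocked, 0 passed in limma and 3 had an unadjusted p under 0.05, beside 15.1% of all genes. Inf2, a formin that also severs filaments, stood at 9.16, 12.0 and 13.3 TPM in basal and at 2.69, 3.23 and 5.91 TPM in induced libraries, without overlap (log2 difference -1.38, SE 0.27; adjusted p = 0.0692 in limma and 5.1e-04 blocked). Daam1, a formin of Wnt signalling, stood at 25.3 ± 2.90 and 16.6 ± 2.73 TPM (SD, n = 3), with adjusted p = 0.172 in limma and 0.00458 blocked. Diaph1, Diaph2 and Diaph3 were not analysed here.

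Crosslinkers and spectrins outside the main set had 16 tested genes, of which 6 fell (37.5%, beside 14.0% of all genes) and 0 rose with the block. Espn, which bundles parallel filaments, stood at 273, 333 and 413 TPM in basal and 149.7, 165 and 272 TPM in induced libraries (adjusted p = 0.195 in limma and 7.8e-04 blocked). Tagln2, a calponin-family protein, stood at 589 ± 37.9 and 419.9 ± 33.2 TPM (SD, n = 3), with adjusted p = 0.120 in limma and 0.00331 blocked. Focal adhesion proteins had 19 tested, 7 of which fell (36.8%, beside 14.0%) and 3 rose (15.8%, beside 8.23%) with the block. Csrp1, a LIM protein that binds alpha-actinin, stood at 184, 191 and 201 TPM in basal and 119.8, 112 and 135 TPM in induced libraries (adjusted p = 0.0689 in limma and 0.00136 blocked). Among the 22 tested regulators of branching 4 fell and 2 rose with the block, with coronins on both sides: Coro2a at 20.9 ± 1.34 and 14.5 ± 1.73 TPM, and Coro2b at 27.5 ± 2.34 and 38.8 ± 5.13 TPM (SD, n = 3), with adjusted p = 0.176 and 0.206 in limma, 0.0105 and 0.0218 blocked.

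The list of unconventional and other myosins also holds Rab27a, Mlph and Myrip, which are not myosins. Of its 17 tested genes 0 rose and 2 fell with the block, among them the light chain Myl4. Myl4 stood at 22.9 ± 5.67 and 13.8 ± 4.54 TPM (SD, n = 3), with adjusted p = 0.286 in limma and 0.00271 blocked. Of 16 tested severing, capping and monomer-binding proteins 0 passed in either fit, and 1 had an unadjusted p under 0.05 in limma, beside 15.1% of all genes. It was villin, Vil1, at 3.16 ± 0.166 and 1.89 ± 0.701 TPM (SD, n = 3), with adjusted p = 0.285 in limma and 0.0647 blocked. Of 7 tested genes around serum response factor 1 fell with the block, the LIM protein Fhl2, at 9.43 ± 3.09 and 5.14 ± 0.352 TPM (SD, n = 3), with adjusted p = 0.189 in limma and 0.00984 blocked. Muscle-type actins were near the floor of the table, Acta1 and Actc1 at means under 0.5 TPM in both groups, and Acta2 and Actg2 lower still. Smooth muscle and fibroblast markers had 7 of 9 under 1 TPM, with sums of 12.9 to 16.6 TPM in basal and 8.11 to 16.3 TPM in induced libraries. The largest part of these sums was Smtn, at 10.2, 11.5 and 12.7 TPM in basal and 6.37, 6.32 and 14.8 TPM in induced libraries. The collagen gene Col1a1 stood at 2.52, 4.03 and 3.52 TPM in basal and 1.59, 1.76 and 1.33 TPM in induced libraries (adjusted p = 0.127 in limma and 0.0170 blocked). The collagen genes Col1a2 and Col3a1 did not exceed 0.052 TPM in any library, and Dcn and Lum were listed at 0 throughout. The part of such cells in the results was not tested.

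The authors' deposited Cuffdiff table lists 5 members, Myot as higher and Vcl, Msn, Ezr and Myh9 as lower in induced cells. That is 2.17% and 8.70% of the tested members, beside 4.51% and 7.98% of all genes tested. In the authors' deposited table the log2 changes were -0.84 for Vcl (q = 4.1e-04), -0.73 for Msn (q = 4.1e-04), -0.56 for Ezr (q = 0.00663) and -0.46 for Myh9 (q = 0.0348). The authors' deposited DESeq2 and limma tables list Myot and no other member, 2.17% beside 1.57% and 1.18% of all genes.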

How the data were processed

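Members and lists were chosen with earlier results of these data known. RNA from dense wells was made into AmpliSeq Library PLUS amplicon libraries and sequenced in a shared lane at a stated 16.6 M reads each, per the labels' protocols. The submitters' processing notes name mm10, limma, DESeq2, the aligners TopHat2 2.0.9 and Bowtie2 2.1.0.0, and the quantifiers Cuffdiff 2.2.0 and Cufflinks 2.2.0, used by the authors. Annotation and settings were not given in the sources used here. Although the expression sheet carries the name FPKM, each deposited library column sums to 1000000, so the values are TPM and keep no depth: no counting interval can be given. Amplicon reads do not scale with length, so levels were compared within a gene. The authors' deposited Cuffdiff and DESeq2 tables give FPKM, log2 fold changes and q-values or adjusted p-values, and the deposited limma table log2 changes, p-values and the B statistic, a score of log odds, per the file headers. Columns carry a group and a number, and were matched to groups only.

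The 12400 of 23349 genes whose mean reached 1 TPM were taken as log2(TPM + 1), where the added 1 shrinks changes of low genes, and compared with limma 3.58.1 in R 4.3.3 (eBayes with trend, Benjamini-Hochberg over all genes tested, threshold 0.05); the test was checked on simulated data. The design was written for values called FPKM, and the same test serves TPM. Same-numbered libraries deviated together (r = 0.46, 0.18 and 0.72 for numbers 1 to 3 over 12400 genes), so the fit with the column number as a block stands beside each result whose call it changes. The pairing comes from these correlations and not from the labels. It is clear only for number 3. Basal 2 correlated more with induced 1 (0.28), and induced 2 more with basal 1 (0.32), than they did with each other. Deviations within a group of 3 sum to 0, so a shared deviation of number 3 alone makes those of numbers 1 and 2 correlate positively. The blocked p-values rest on a pairing taken from the same data and may be too small. Alternatives were a pseudocount of 0.1, no filter, a filter at 5 TPM, quantile and median-ratio scaling, the offset of the DESeq2 table of the authors, no trend, the block, leaving out each library and both numbered 3; loess correction for GC (span 0.3, transcripts for 99.1% of tested genes), alone and with the block, and the block without the libraries numbered 3, were added after seeing the data. Members were named in full where past the threshold in either fit or in a pair, and of each list 1 to 3 genes past it in either fit, or with the smallest p where none passed; the rule takes more genes than are described, and which of them to describe was chosen after their values were seen, as were genes outside it, among them Mb, Col1a1, Acta1, Actc1, Acta2 and Actg2. Pair identity used Biopython 1.88 global alignments of the longest GENCODE M21 coding transcripts. Of the listed symbols 6 had no row under that name and were not analysed here. A further list of genes is not reported here.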

Additional observations from a re-analysis of the deposited data

How the results depend on the processing

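With the column number as a replicate block 3 members were higher and 8 lower, against 1 and 0 without it. The offset of the deposited DESeq2 table gave 7 higher, with a median of 0.37, and turned Actg1, Actn4 and Evl to 0.0044, 0.081 and 0.115. Leaving out both libraries numbered 3 gave 5 lower, GC correction 3 lower, and GC correction with the block 4 higher and 7 lower, Evl no longer among them; the block without the libraries numbered 3 gave 1 higher and 6 lower. Over all genes tested the calls were 16 higher and 132 lower, 1021 and 1740 with the block, 1858 and 136 with the offset, 320 and 689 without the libraries numbered 3, 163 and 314 with GC correction, 1916 and 1692 with that and the block, and 707 and 1157 with the block and without the libraries numbered 3. Leaving out 1 library gave 0 to 1 member higher and 0 lower, member medians of -0.17 to 0.013, and log2 differences of Pam of 1.99 to 2.48. Over all genes 0 were then called without basal 1, basal 2 or induced 1. There were 2 higher and 15 lower without basal 3, 1 and 0 without induced 2, and 39 and 244 without induced 3. The lost calls of Pam and Myot thus came with a loss of calls over the whole table. Pseudocounts, filters, quantile or median-ratio scaling and variance moderation left 1 member higher and 0 lower. All 18 pair ratios moved by less than their spread between libraries with a pseudocount of 0.1 or 1 library left out. With 1 library left out this could hardly come out otherwise, so it does not show that the ratios are stable. The difference for Actb to Actg1 was -0.07 in the main fit, 0.72 without induced 3 and -0.50 without induced 2. For Pfn1 to Pfn2 it was -0.02, then -0.33 without induced 3 and 0.25 without induced 1. The cause of these changes was not tested. Raw-count tests were not run because the values are TPM, and the absence of depth leaves the precision of low genes such as Tmsb4x unknown.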
